A study of Rattus norvegicus with 12 samples.

Results

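The non-muscle actin cytoskeleton was described here through 52 listed genes, which code for the actin filaments found in every cell and for the proteins that build, cut, bundle and anchor them. A gene was kept where the annotation of the array gave its symbol to a probe, and for a gene with several probes the brightest over all arrays was taken. A total of 44 of the 52 genes had a probe, of 13336 genes with a named probe on the array. Wasl, Tmsb4x, Capza1, Fscn1, Marcks, Tln1, Ablim1 and Ablim3 had none under these symbols and were not analysed here. Of the 44 genes, 39 were above background on at least 3 arrays and were tested, among 10281 tested probes of 22517 on the array.

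The RNA came from the left ventricles of 12 adult Wistar rats that carried an adeno-associated virus vector of serotype 9, injected through a tail vein. The 6 AAV-VEGF-B rats received human VEGF-B, a growth factor of the coronary vessels, and the 6 AAV-HSA rats received human serum albumin, a plasma protein that served as the control, from the same kind of vector. The methods name vectors for both VEGF-B isoforms, and the promoter that drives the transgene was not found in the methods read. The transgene had been expressed for 2 months in 3 females of each group and for 4 months in 3 males, which were injected again in between, so that sex, duration and the second injection cannot be told apart. A vector given by this route reaches other organs as well, and the labels give no age. Values were compared between the vectors over all 12 hearts, within females, within males, and between the males and the females.

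Actin is held in cells as single molecules and as filaments that grow at one end and shrink at the other. The Arp2/3 complex starts new branches on existing filaments after activation by proteins such as WASP, cofilin cuts old filaments, profilin and cyclase-associated protein recycle the released molecules, and filamins, plastins and alpha-actinins tie filaments into networks and bundles. In the heart the contractile apparatus uses muscle actins, whereas these non-muscle proteins are abundant in endothelial cells, fibroblasts and blood cells and, at lower levels, serve the membrane and the cell contacts of cardiomyocytes.

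The signals are given as log2 values after background correction and quantile normalization, so that a difference of 1 is a 2-fold difference. The raw signals ran from 97.1 to 45492.6, the array medians from 151.8 to 179.6, and 8827 to 9800 probes per array were above background at a detection p under 0.05. No array stood apart, with correlations between pairs of arrays from 0.988 to 0.994, and no pair held identical signals. The number of arrays, 6 per vector, limits the precision. In bulk tissue, fewer cells of a type and less RNA per cell cannot be told apart.

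In the AAV-VEGF-B hearts, 13 of the 39 tested genes were higher than in the AAV-HSA hearts and 1 was lower, by limma with Benjamini-Hochberg adjustment over all tested probes at an adjusted p under 0.05. These are 33.3% of the genes, against 4.17% of all tested probes higher, and 2.56% of the genes, against 1.03% of all probes lower. The genes were listed with earlier results of these data known, so the shares are descriptions. They also differ in brightness: 35 of the 39 genes were above background on all 12 arrays, beside 7670 of the 10281 probes. The gene Was passed the filter only through its AAV-VEGF-B hearts, and without it 12 of 38 genes were higher. Marcksl1, Msn, Arpc1b, Flna and Actb rose by 0.53 to 0.95 on the log2 scale, and Coro6 fell by 0.34. The median change over the 39 genes was 0.26, beside −0.02 over all tested probes. A total of 28 genes lay above 0 and 11 below, beside 43.8% of all tested probes above 0. None of the 39 genes changed by more than 2-fold. Before adjustment, 22 genes were higher and 2 lower at a p under 0.05, beside 10.6% and 9.38% of all tested probes. With median scaling of the arrays in place of quantile normalization, 20 genes were higher and 0 lower. Of all 10281 tested probes, 842 were then higher and 27 lower, beside 429 and 106 with quantile normalization.

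**Figure D1:**
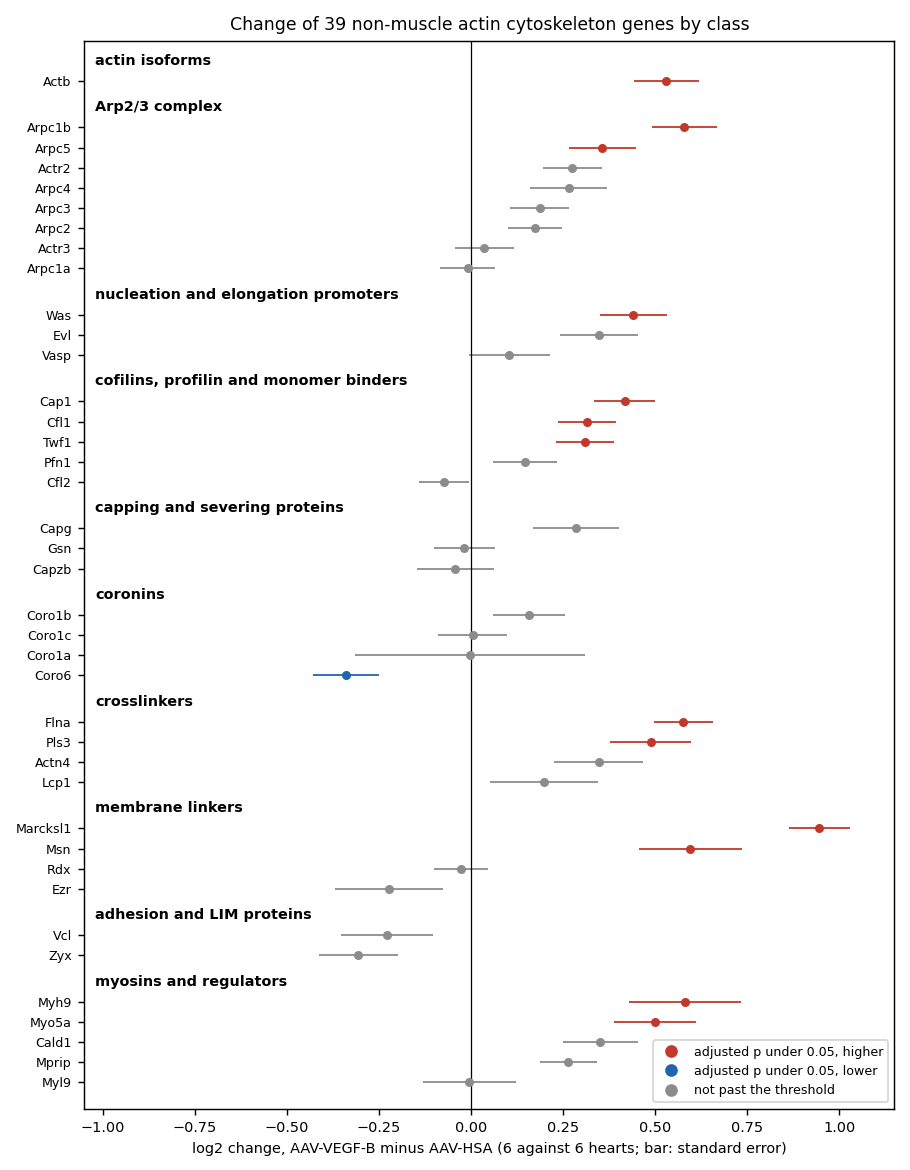
Log2 change of each tested gene, AAV-VEGF-B minus AAV-HSA (horizontal axis), by class, with the standard error as a bar and 6 hearts per vector. The 13 red points lie between 0.31 and 0.95, the blue point (Coro6) lies at −0.34, and the 25 grey points lie between −0.31 and 0.35.

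Promoter sequences of 3 genes that rose and of Coro6, which fell, are shown here to set the windows of both directions side by side, and the sequences are those of RefSeq for the rat assembly GRCr8. Of the 52 genes, 43 had an entry, as a window of 250 bases before and 50 after the start, and Actb, Actn4, Arpc1a, Cap1, Capg, Lasp1, Lcp1, Mprip and Myl9 were the other 9. The 100 bases just before the start are given 5′ to 3′ on the strand of the gene, with each GC box (GGGCGG, or CCGCCC on the other strand) in capitals.
Marcksl1 (chr5:147135727-147135826, plus strand): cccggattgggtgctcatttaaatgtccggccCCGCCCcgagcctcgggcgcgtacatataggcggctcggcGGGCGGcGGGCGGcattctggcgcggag
Flna (chrX:157182344-157182443, minus strand): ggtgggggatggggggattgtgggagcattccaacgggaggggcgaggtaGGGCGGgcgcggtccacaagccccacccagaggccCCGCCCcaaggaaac
Arpc1b (chr12:14609489-14609588, minus strand): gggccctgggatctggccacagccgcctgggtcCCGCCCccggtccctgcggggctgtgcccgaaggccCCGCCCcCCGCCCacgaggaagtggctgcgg
Coro6 (chr10:62811101-62811200, plus strand): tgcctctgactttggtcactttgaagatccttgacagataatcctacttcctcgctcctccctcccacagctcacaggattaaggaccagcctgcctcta
The stretches of Marcksl1 and Arpc1b held 3 GC boxes each and that of Flna held 2, whereas that of Coro6 held 0. Over the whole windows, 10 of 11 genes called higher with an entry and 18 of 20 other tested genes with an entry held a GC box, so that the letters did not divide the genes that rose from the rest. Of all 33469 windows, 33.1% held one. That share was counted by window, not by gene, and over genes tested or not, so it is not a like measure.

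The CArG box, the site of serum response factor, was searched on both strands because several actin genes are known targets of that factor. It was found in the window of 1 of the 43 genes (2.33%), beside 548 of all 33469 windows (1.64%). The gene was Actg1, and the stretch is shown with the box in capitals.
Actg1 (chr10:106121012-106121061, minus strand): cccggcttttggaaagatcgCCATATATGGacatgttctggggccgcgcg
A match in letters is a description of the window and does not show a bound factor. Srf, which codes for the factor, had a log2 change of 0.08 ± 0.10 (SE, n = 6 per vector) and was not called (adjusted p = 0.72).

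Actb and Actg1 code for beta- and gamma-actin, the building blocks of the non-muscle filament. Actb ran from 13.45 to 13.65 in the AAV-HSA hearts, with a median of 13.56, and from 13.78 to 14.34 in the AAV-VEGF-B hearts, with a median of 14.09. All 6 AAV-VEGF-B hearts were above all 6 AAV-HSA hearts, and the nearest to the controls was a male, AAV-VEGF-B 2. The change was 0.53 ± 0.09 (SE), or 1.44-fold (adjusted p = 0.0023). Both of the other Actb probes were higher as well, by 0.46 each, with adjusted p-values of 0.011 and 0.014, and in both the groups again did not overlap. The probe of Actg1 was above background on 1 of 12 arrays, ran from 5.20 to 5.62 with a median of 5.38 in the AAV-HSA hearts and from 5.18 to 5.86 with a median of 5.40 in the AAV-VEGF-B hearts, and was not tested.

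Complete separation of the vectors, as seen for Actb, was found for 9 of the 39 genes (Actb, Arpc1b, Actr2, Was, Cfl1, Cap1, Twf1, Flna and Marcksl1), and 2.96% of all tested probes separated in this direction. Was passed the filter only through its AAV-VEGF-B hearts, and without it the count was 8 of 38. None of the 39 genes had all AAV-VEGF-B hearts below all AAV-HSA hearts, as 0.982% of all probes did.

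All 8 genes of the Arp2/3 complex were tested, and 2 rose, 6 were not called and none fell. The median change of the class was 0.23. Arpc1b, an isoform of the subunit that binds the activators and is the main one of blood cells, ran from 7.29 to 7.61 with a median of 7.49 in the AAV-HSA hearts and from 7.87 to 8.32 with a median of 8.09 in the AAV-VEGF-B hearts. The groups did not overlap, and the change was 0.58 ± 0.09, or 1.49-fold (adjusted p = 0.0011). Arpc1a, the other isoform of this subunit, had a change of −0.01 ± 0.07 and was not called. Arpc5, a small subunit, ran from 10.54 to 10.82 with a median of 10.65 in the controls and from 10.81 to 11.21 with a median of 11.05 under AAV-VEGF-B. The lowest AAV-VEGF-B heart thus touched the highest controls, and the change was 0.36 ± 0.09 (adjusted p = 0.033). Actr2, an actin-related subunit at the base of the new branch, separated the groups completely with a change of 0.28 ± 0.08, but its adjusted p of 0.061 missed the threshold. The other 4 changes ran from 0.04 for Actr3 to 0.27 for Arpc4.

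Among the promoters of nucleation and elongation, 1 of 3 tested genes rose and the median change was 0.35. Was codes for WASP, the activator of the Arp2/3 complex in blood cells. Its probe exceeded background in 4 of 6 AAV-VEGF-B hearts and in 0 of 6 AAV-HSA hearts, and it passed the filter only through the AAV-VEGF-B hearts. Its signal ran from 5.13 to 5.48 with a median of 5.29 in the AAV-HSA hearts and from 5.52 to 5.94 with a median of 5.78 in the AAV-VEGF-B hearts (adjusted p = 0.010). The groups did not overlap, and since the control values were not well above background, no fold is given. Leaving Was out, 12 of 38 genes were higher. Evl and Vasp, relatives that keep filament ends growing, had changes of 0.35 ± 0.11 (adjusted p = 0.070) and 0.10 ± 0.11 and were not called.

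Of the genes for cofilins, profilin and monomer binders, 3 of 5 tested rose and none fell, with a median change of 0.31. Cap1 codes for cyclase-associated protein, which frees actin from cofilin and reloads it. It ran from 8.67 to 8.95 with a median of 8.85 in the AAV-HSA hearts and from 9.07 to 9.41 with a median of 9.21 in the AAV-VEGF-B hearts. The groups did not overlap, and the change was 0.42 ± 0.08, or 1.34-fold (adjusted p = 0.0081).

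Cfl1, the non-muscle cofilin that severs filaments, ran from 12.36 to 12.60 with a median of 12.49 in the controls and from 12.61 to 12.94 with a median of 12.82 under AAV-VEGF-B, a separation by a narrow gap. The change was 0.31 ± 0.08 (adjusted p = 0.028). Twf1, or twinfilin, which binds single actin molecules and filament ends, ran from 8.64 to 8.91 with a median of 8.79 and from 8.93 to 9.28 with a median of 9.08 in the same order. Its groups were also separated narrowly, with a change of 0.31 ± 0.08 (adjusted p = 0.032). Cfl2, the cofilin of striated muscle, had a change of −0.07 ± 0.07, and Pfn1, which codes for profilin, of 0.15 ± 0.09, and neither was called. The probes of Dstn and Tmsb10 were above background on 0 of 12 arrays.

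None of the 3 tested genes for capping and severing proteins was called, and the median change was −0.02. The changes were 0.29 ± 0.12 for Capg, a cap of filament ends in macrophages and other cells (adjusted p = 0.18), −0.02 ± 0.08 for Gsn, which codes for the severing protein gelsolin, and −0.04 ± 0.10 for Capzb, a subunit of the capping protein that also closes filament ends at the Z-disc of muscle.

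Of the 4 coronins, which bind the sides of filaments and regulate branching, none rose and 1 fell, with a median change of 0.00. Coro6 ran from 10.16 to 10.46 with a median of 10.35 in the AAV-HSA hearts and from 9.72 to 10.24 with a median of 10.02 in the AAV-VEGF-B hearts. The 6 hearts of each vector overlapped slightly, because the male AAV-VEGF-B 2 at 10.24 lay above the lowest control, and the change was −0.34 ± 0.09, or 0.79-fold (adjusted p = 0.040). Without 10 of the 12 hearts, left out 1 at a time, the call was lost, with the change between −0.28 and −0.36 in those fits. Coro1b had a change of 0.16 ± 0.10, Coro1c of 0.01 ± 0.09 and Coro1a of 0.00 ± 0.31, and none of these was called. Coro1a had the widest spread of the 39 genes, with an SD of 0.76 in the AAV-VEGF-B hearts.

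Crosslinkers followed the rise: 2 of 4 tested genes were higher, none was lower, and the median change was 0.42. Flna codes for filamin A, which joins filaments at angles and binds membrane receptors. It ran from 10.38 to 10.77 with a median of 10.60 in the AAV-HSA hearts and from 11.03 to 11.29 with a median of 11.17 in the AAV-VEGF-B hearts. The groups did not overlap, and the change was 0.58 ± 0.08, or 1.49-fold (adjusted p = 0.00063).

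Pls3, a plastin that packs filaments into bundles outside blood cells, ran from 8.37 to 8.68 with a median of 8.60 in the controls and from 8.57 to 9.28 with a median of 9.10 under AAV-VEGF-B. The overlap came from 1 female, AAV-VEGF-B 3 at 8.57, while the next AAV-VEGF-B heart was at 9.02, and the change was 0.49 ± 0.11 (adjusted p = 0.018). Lcp1, the plastin of leukocytes, had a change of 0.20 ± 0.15, and Actn4, a non-muscle alpha-actinin, of 0.35 ± 0.12 (adjusted p = 0.11), and neither was called. The probe of Actn1 was above background on 0 of 12 arrays.

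The largest change of all 39 genes was that of a membrane linker, Marcksl1, whose product binds actin and the inner face of the cell membrane. It ran from 6.45 to 6.82 with a median of 6.64 in the AAV-HSA hearts and from 7.43 to 7.74 with a median of 7.53 in the AAV-VEGF-B hearts. The gap between the groups was wider than the range within either, and the change was 0.95 ± 0.08, or 1.93-fold (adjusted p = 3.5e-05).

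Msn codes for moesin, the member of the ezrin, radixin and moesin family that is most abundant in endothelial cells and leukocytes, and these proteins tie filaments to membrane proteins. It ran from 7.92 to 8.56 with a median of 8.17 in the controls and from 8.25 to 9.12 with a median of 8.82 under AAV-VEGF-B. The groups overlapped, since the female AAV-VEGF-B 3 at 8.25 lay below the male controls AAV-HSA 1 at 8.56 and AAV-HSA 5 at 8.32, and the change was 0.60 ± 0.14 (adjusted p = 0.021). Ezrin (Ezr) had a change of −0.22 ± 0.15 and radixin (Rdx) of −0.03 ± 0.07, and neither was called. The median change of the 4 tested membrane linkers was 0.28.

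The genes for adhesion and LIM proteins gave 0 calls in 2 tested genes, with a median change of −0.27. Zyx, which codes for zyxin of stressed filaments and cell contacts, had a change of −0.31 ± 0.11 (adjusted p = 0.11), and Vcl, which codes for vinculin of cell contacts, of −0.23 ± 0.13. Vcl exceeded background in 6 of 6 AAV-HSA and 4 of 6 AAV-VEGF-B hearts, and Lasp1 in 0 of 12.

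Among myosins and their regulators, 2 of 5 tested genes rose and none fell, with a median change of 0.35. Myo5a codes for myosin Va, a motor that carries vesicles along filaments. It ran from 5.96 to 6.63 with a median of 6.42 in the AAV-HSA hearts and from 6.57 to 7.0 with a median of 6.87 in the AAV-VEGF-B hearts. The overlap came from 1 male of each vector, and the change was 0.50 ± 0.11 (adjusted p = 0.016). Myh9, the heavy chain of non-muscle myosin IIA, had a change of 0.58 ± 0.15 (adjusted p = 0.038) and was above background in 6 of 6 AAV-VEGF-B hearts and in the 3 male but in 0 of the 3 female controls, so that its change rests in part on control values not well above background. In the females its mean was at least 1.41-fold higher under AAV-VEGF-B, taking each control at the lowest signal above background on its array. Cald1, which codes for the filament-binding caldesmon, had a change of 0.35 ± 0.10 (adjusted p = 0.058), Mprip, which brings myosin phosphatase to filaments, of 0.26 ± 0.08 (adjusted p = 0.065), and Myl9, a regulatory light chain, of 0.00 ± 0.13, and none was called.

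**Figure D2:**
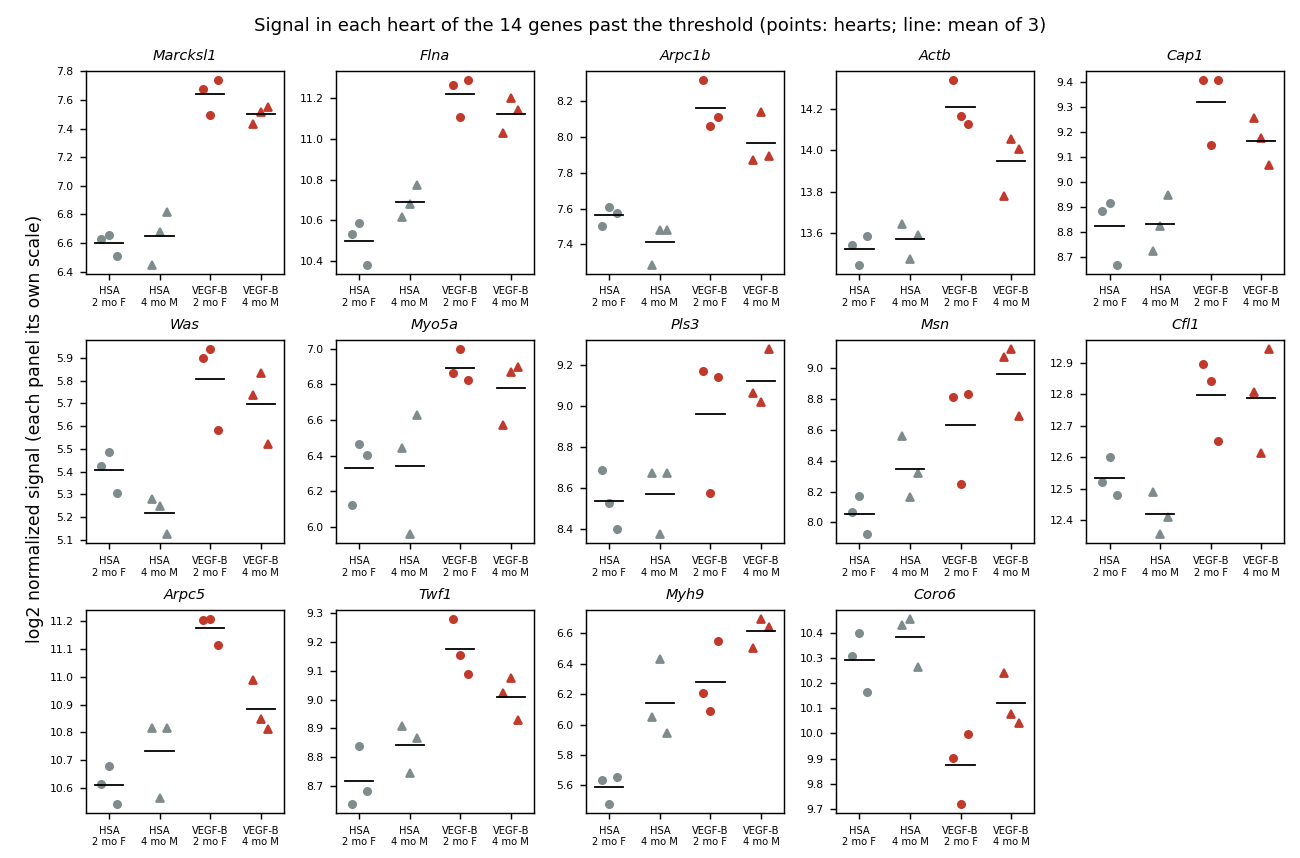
Log2 normalized signal (vertical axis, a scale of its own in each panel) in each of the 12 hearts for the 14 genes past the threshold, with circles for 2-month females, triangles for 4-month males, grey for AAV-HSA, red for AAV-VEGF-B and a line at the mean of 3 hearts. Marcksl1, Flna, Arpc1b, Actb, Cap1, Was, Cfl1 and Twf1 show no overlap of the vectors, and Coro6 is the one panel with the AAV-VEGF-B hearts below.

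Within the AAV-VEGF-B group, the hearts were not ordered the same way for every gene. Of the 13 genes called higher, AAV-VEGF-B 2 had the lowest value of its group in 5 and the highest in 0, and AAV-VEGF-B 6 had the lowest in 4. The hearts AAV-VEGF-B 1, 3 and 5, the females, each had the highest value in 3 genes. In the controls AAV-HSA 6 had the lowest value in 4 of these genes and AAV-HSA 1 and 5 had the highest in 4 each.

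In the females, 9 of the 39 genes were higher under AAV-VEGF-B, beside 2.53% of all tested probes, and 0 were lower, beside 0.788%, by limma in a fit of the 4 groups with 3 hearts each. They were Actb, Arpc1b, Arpc5, Cap1, Twf1, Flna, Marcksl1, Myh9 and Cald1, and the median change was 0.26. The other probes of Actb, with adjusted p-values of 0.052 and 0.055, were not called in the females. Before adjustment, 19 genes were higher and 2 lower, beside 1030 and 892 of all 10281 tested probes. Without AAV-VEGF-B 1 the count fell to 3, without AAV-HSA 6 to 4 and without AAV-VEGF-B 5 to 5.

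In the males, 2 of the 39 genes, Arpc1b and Marcksl1, were higher, beside 0.749% of all tested probes, and 0 were lower, beside 0.0389%, with a median change of 0.16. Before adjustment, 15 genes were higher and 2 lower, beside 6.93% and 4.49% of all tested probes. The count fell to 1 without any 1 of 11 of the 12 hearts, all but AAV-VEGF-B 1. It rose to 5 without background correction and to 4 where only probes above background on all 12 arrays were tested. The counts of all probes in these fits of the males are not given, so these shifts cannot be set against them.

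Marcksl1 had a change of 1.04 ± 0.11 in the females (adjusted p = 0.00099) and 0.85 ± 0.11 in the males (adjusted p = 0.0094). Its signals were 6.63, 6.66 and 6.51 in the female controls and 7.68, 7.50 and 7.74 in the females given AAV-VEGF-B. In the males they were 6.45, 6.68 and 6.82 in the controls and 7.43, 7.52 and 7.55 under AAV-VEGF-B, so that every treated heart lay above every control of its own sex. Arpc1b changed by 0.60 ± 0.11 in the females (adjusted p = 0.014) and by 0.56 ± 0.11 in the males (adjusted p = 0.040). All 13 genes called higher over 12 hearts had changes above 0 in the females and in the males. They were selected on the change over these same hearts, so the shared sign is no separate evidence. For 10 of the 14 called genes the change was the larger in the females, but the share over all tested probes was not counted.

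The difference between the females' and the males' changes was tested as an interaction, and 0 of the 39 genes passed it in either direction, as did 0% of all tested probes. Before adjustment, 1 gene, Vcl, had a higher change in the males and 2 genes, Arpc5 and Lcp1, a lower one, whereas 251 and 291 of all probes did. Arpc5 changed by 0.56 ± 0.10 in the females and 0.15 ± 0.10 in the males, with a difference of −0.41 ± 0.15. Lcp1 changed by 0.46 ± 0.15 and −0.06 ± 0.15, with a difference of −0.52 ± 0.21. Vcl changed by −0.50 ± 0.15 and 0.04 ± 0.15, with a difference of 0.54 ± 0.22. The adjusted p of each of the 3 differences was 0.94. With 3 hearts in each of 4 groups, a p that misses the threshold does not show that the females and the males responded alike.

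**Figure D3:**
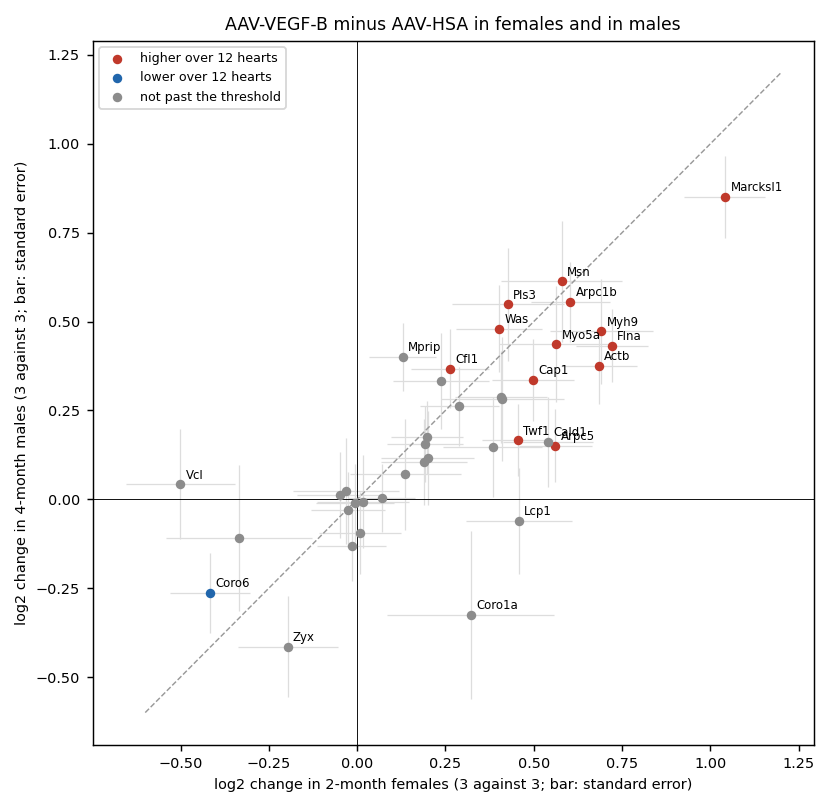
Log2 change in the 2-month females (horizontal axis) against the 4-month males (vertical axis) of the 39 tested genes, with standard errors as bars and 3 hearts per vector in each. The dashed line marks equal changes. Marcksl1 lies at 1.04 and 0.85, and Arpc5 and Lcp1 lie below the line with 0.15 and −0.06 in the males.

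Between the males and the females, averaged over both vectors, 1 of the 39 genes was lower in the males, beside 0.613% of all tested probes, and 0 were higher, beside 0.447%. The gene was Coro1a, whose product, coronin 1A, is found mostly in leukocytes. The female controls had signals of 7.60, 7.77 and 7.51 and the females given AAV-VEGF-B had 8.04, 8.21 and 7.59. The male controls had 7.54, 6.36 and 6.95 and the males given AAV-VEGF-B had 6.76, 6.58 and 6.53. All 6 males thus lay below 5 of the 6 females, and 1 male control, at 7.54, was just above the lowest female. The difference was −1.0 ± 0.17, males minus females (adjusted p = 0.021), and −0.68 ± 0.24 within the AAV-HSA hearts (adjusted p = 0.36). It was not called without AAV-HSA 5, AAV-VEGF-B 1 or AAV-VEGF-B 4, with adjusted p-values of 0.055, 0.059 and 0.051. Of 16 leukocyte markers 8 were tested, 0 of them were called between the males and the females, and their median difference was 0.07. The markers Ptprc, Itgam, Cd3g, Cd4, Cd52 and Cd53 were too dim to test. Before adjustment, 4 of the 39 genes were higher and 7 lower in the males, beside 8.68% and 7.83% of all tested probes. Besides Coro1a, the lower ones included Capzb (−0.26 ± 0.08), Lcp1, the plastin of leukocytes (−0.32 ± 0.11), and Capg (−0.28 ± 0.10). Actr3 (−0.19 ± 0.07) and Evl (−0.22 ± 0.09) were lower as well. None of these but Coro1a was called after adjustment. Was, of blood cells, differed by −0.15 ± 0.09 and was not among them, but its probe was above background on only 4 of 12 arrays. Within the AAV-HSA hearts alone, 0 of the 39 genes were called, beside 0.0195% of all probes higher and 0.00973% lower, and 1 was higher and 2 were lower before adjustment, beside 5.36% and 4.94% of all probes.

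**Figure D4:**
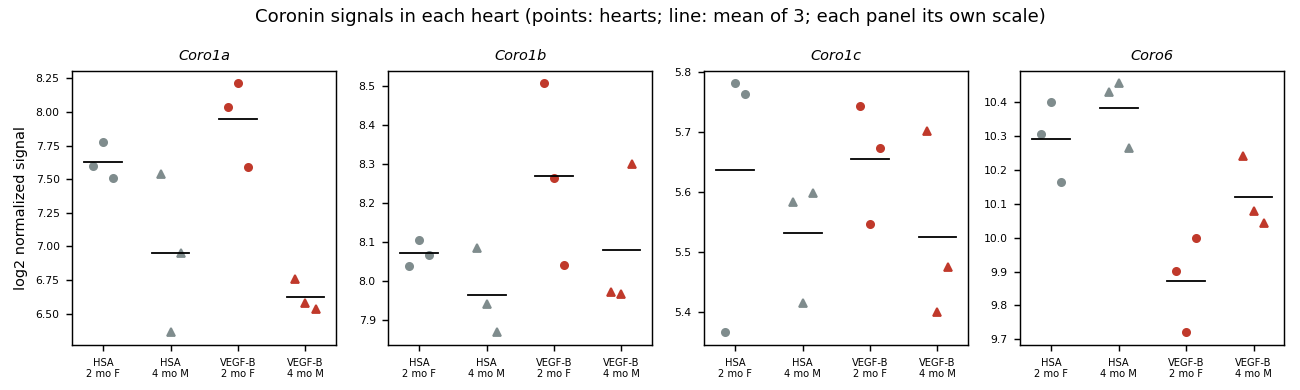
Log2 normalized signal (vertical axis, a scale of its own in each panel) of the 4 coronins in each of the 12 hearts, with circles for 2-month females, triangles for 4-month males, grey for AAV-HSA, red for AAV-VEGF-B and a line at the mean of 3 hearts. Coro1a is at 7.51 to 8.21 in the females and at 6.36 to 7.54 in the males, and the Coro6 means are lower under AAV-VEGF-B in the females and in the males, where neither difference alone was called (adjusted p = 0.064 and 0.40).

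The muscle actins and sarcomeric actin binders gave 0 calls in 9 tested genes, with a median change of −0.03. Of all tested probes, 4.17% were higher and 1.03% lower, so 0 calls in so few genes say little.

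Markers of other cell types were measured on the same arrays. The counts below stand beside 4.17% of all tested probes higher and 1.03% lower under AAV-VEGF-B. Of 14 endothelial markers 11 were tested and 6 were higher under AAV-VEGF-B (Cdh5, Tie1, Tek, Emcn, Esam and Icam2), 0 were lower, and the summed signal of the list was 7774 to 9685 in the AAV-HSA hearts and 10562 to 12716 in the AAV-VEGF-B hearts. Pecam1, Kdr and Eng had no probe. Thus the endothelial sum separated the vectors as Actb, Flna and Marcksl1 did, and its part in their rise was not tested. The 11 tested cardiomyocyte markers, all above background on all 12 arrays, gave 0 calls with a median change of −0.03, and their sums were 239125 to 248096 and 231562 to 243971. The leukocyte sums overlapped, at 2923 to 3620 and 2830 to 3784, with 1 of 8 tested markers higher (Aif1). Each sum takes in every marker with a probe, also those too dim to test. For leukocytes these were 14 probes, of which 5 were above background on all 12 arrays. Of the smooth muscle and pericyte list 2 of 4 tested markers were higher (Cspg4 and Mcam), with sums of 769 to 1131 and 1085 to 1490. These sums are over 6 probes, of which 2 were above background on all 12 arrays. The fibroblast list gave 0 calls in 10 tested genes, with sums of 22608 to 26419 and 21351 to 32219.

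The calls were repeated under 19 other settings of the processing. In the setting that took the second brightest tested probe, only Actb had another tested probe. The calls of the other genes could not change there. Actb, Arpc1b, Was, Cap1, Flna, Pls3, Msn, Marcksl1 and Myo5a, 9 of the 14 called genes, were called in each setting that tested them, whereas Arpc5, Cfl1, Twf1, Myh9 and Coro6 lost the call in some. Was, which passed the filter only through its AAV-VEGF-B hearts, was not tested where all 12 arrays had to be above background, and without it 8 of 13 called genes were called in each setting that tested them. Of the 12 fits that left out 1 heart, Arpc5 and Twf1 were called in 5, Cfl1 in 6, Myh9 in 4 and Coro6 in 2. Arpc5 was not called without AAV-HSA 2, 3, 4 or 6 or AAV-VEGF-B 1, 3 or 5 (adjusted p up to 0.078), Twf1 without AAV-HSA 2, 3 or 6 or AAV-VEGF-B 1, 3, 4 or 5 (up to 0.074) and Cfl1 without AAV-HSA 3, 5 or 6 or AAV-VEGF-B 1, 3 or 6 (up to 0.066). Myh9 was not called without AAV-HSA 2, 4, 5 or 6 or AAV-VEGF-B 2, 4, 5 or 6 (up to 0.082), and Coro6 was called without AAV-HSA 6 or AAV-VEGF-B 2 but not without any other heart (up to 0.088). Another 8 genes were called in at least 1 other setting, such as Actr2, Cald1 and Mprip where no background was subtracted. Actr2, Evl and Mprip were also called higher with the stratum (2-month females or 4-month males) as a block. Under that setting 494 of all tested probes were higher and 180 lower.

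**Figure D5:**
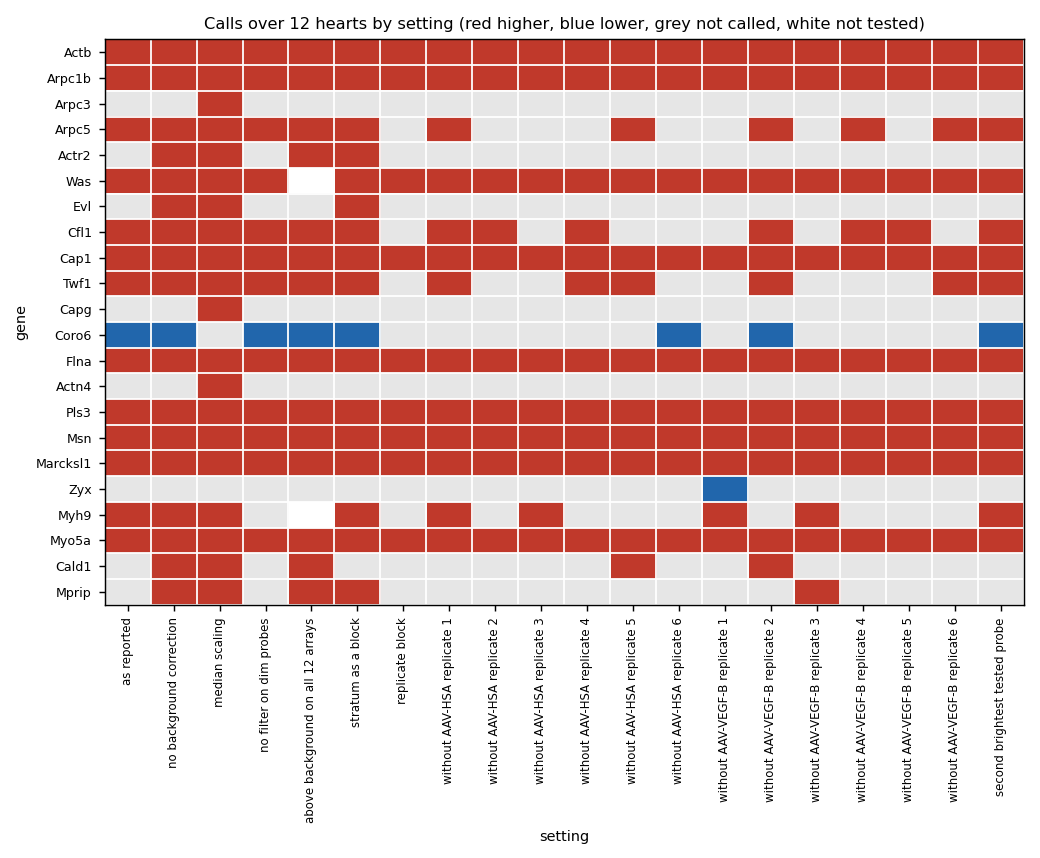
Calls over 12 hearts for the 22 genes called in at least 1 setting (vertical axis) under the reported and the 19 other settings (horizontal axis), with red for higher, blue for lower, grey for not called and white for not tested. The 9 lines of cells that are red throughout, apart from the white cell of Was, belong to the genes that were called in each setting that tested them.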

How the data were processed

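Left ventricular RNA of 12 rats was hybridized to Illumina RatRef-12 bead arrays, 1 array per heart. The authors deposited probe intensity values from GenomeStudio that had not been normalized, each paired with a detection p-value against the negative control beads. A second deposited table holds log2 values, and quantile normalization of the intensities with no background step gave these values to within 0.005, so they served as an alternative. Groups, replicate numbers, sex and duration came from the labels, and the injections from the supporting methods. The labels do not say whether hearts came from separate litters or injection days, so p-values measure the spread between these hearts.

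In R 4.3.3 with limma 3.58.1, signals were corrected by neqc (normexp with detection p-values, offset 16, quantile normalization, log2). Probes above background (detection p under 0.05) in 3 or more of the 12 hearts were tested with lmFit and eBayes and adjusted over all 10281 tested probes. The comparison of the vectors used 2 groups of 6, and those by sex and duration used 4 groups of 3. In simulated data with 10281 probes, 70 of 100 changes of 0.5 and 99 of 100 changes of 1 on the log2 scale were recovered in the comparison of the vectors. The simulated hearts held no difference between females and males. In the real comparison of 2 groups such differences add to the spread, so recovery there can be lower.

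The genes, classes and marker lists were chosen with earlier results of these data known, and counts over them are descriptions. Values are given by heart or by lowest, median and highest for called genes (up to 12 with the smallest p in each direction, which leaves Myh9 to its change), for genes called between the strata and for both actins, and genes outside the list are named where called, up to 4 per list, except that all called endothelial markers and Srf are named; the GC box and the 4 genes whose promoters are shown were chosen after values were seen. Replicate numbers did not pair the hearts, since the same number always joined a female and a male. Alternatives covered background, scaling, filter, blocks, probe choice and each heart left out. Probes of several gene symbols were not used. The result of 1 list of regulators is not reported here.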

Additional observations from a re-analysis of the deposited data

Results flagged for a closer look

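In 2 of 78 groups of 6 hearts, 1 heart lay far from the other 5 for its gene, and chance alone sets apart about 1 in 20 such groups. Gsn in AAV-VEGF-B 5, a female, was at 13.63, below the next heart at 13.94, and the gap was 0.685 of the range of the group. Pls3 in AAV-VEGF-B 3, also a female, was at 8.57, below the next heart at 9.02, and the gap was 0.634 of the range. Pls3 was called higher with and without that heart.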

How the results depend on the processing

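Over 12 hearts, 9 to 13 genes were higher when each heart was left out in turn, and 0 or 1 were lower. Median scaling in place of quantile normalization gave 20 higher and 0 lower, with a median of 0.34 for the Arp2/3 complex, and moved the median of all probes from −0.02 to 0.08, with 842 probes higher and 27 lower, beside 429 and 106 as reported; without background correction these were 496 and 179, and with the stratum as a block 494 and 180. With a replicate block 9 genes were higher and 0 lower, and 300 and 42 of all probes. Same-numbered hearts were always a female and a male, and their deviations from the vector means correlated at −0.195 to −0.049. Any difference between females and males lowers these correlations, so they cannot test a pairing. Leaving out AAV-VEGF-B 1 gave 322 and 49 probes. In the females 1 gene was lower without background correction and 1 where all 12 arrays had to be above background, and 3 to 10 were higher with a heart left out. In the males 5 and 4 genes were higher under these settings, and 1 to 2 with a heart left out. Between the males and the females 0 to 1 genes were lower and 0 to 1 higher with a heart left out. For these comparisons by sex and duration, the counts of all probes under the other settings are not given. No called gene changed sign in the 19 settings, whereas 9 genes that were not called did. The cause of these shifts was not tested. The slide as a block was not run, since the file headers name no slide.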

Other observations

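Of the microtubule genes, 4 of 14 tested rose under AAV-VEGF-B and none fell, with a median change of 0.11 beside −0.02 over all tested probes. Of all tested probes, 4.17% rose and 1.03% fell. Tuba1a, an alpha-tubulin of growing cells, rose by 0.52 ± 0.09 (SE, n = 6 per vector; limma adjusted p = 0.0030), Tubb5, a beta-tubulin found in most cells, by 0.50 ± 0.09 (adjusted p = 0.0061), Tubb2a by 0.46 ± 0.12 (adjusted p = 0.037) and Stmn1, which codes for the tubulin-binding stathmin, by 0.61 ± 0.12 (adjusted p = 0.0083). Stmn1 ran from 7.72 to 8.48 in the AAV-HSA hearts and from 8.63 to 8.94 in the AAV-VEGF-B hearts, without overlap.

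Acta1, the skeletal muscle actin that the heart also makes, was the 1 gene of the sarcomeric list called between the males and the females, with a difference of −1.48 (adjusted p = 0.026). Of all tested probes, 0.613% were lower and 0.447% higher in the males. Under AAV-VEGF-B the change of Acta1 was 0.47 ± 0.47, and it was not called.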
